A study of Mus musculus with 2 samples.

Results

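The genes described here are 9 members of the Krüppel-like factor (KLF) family, Klf1, Klf2, Klf3, Klf4, Klf5, Klf6, Klf9, Klf10 and Klf13, out of 21884 protein-coding genes. They were taken by name, and every peak and footprint of either library that lay in the gene body or within 50 kb of any annotated transcript start of a member was kept, which is called the reach of the gene. Across the members this gave 85 of 76130 peaks in replicate 1 and 94 of 73852 peaks in replicate 2, with 210 of 151079 and 338 of 230992 footprints. The data are DNase-seq, which reads out DNA that the enzyme DNase I can cut because no nucleosome covers it, in embryonic mouse liver at 13.5 days of development. The 2 libraries are biological replicates of 1 group on a C57BL/6N,129 background, labelled WT with the A85 YAC, several copies of a yeast artificial chromosome whose content the labels leave out. Any YAC sequence identical to mouse DNA would add to values at the matching mouse positions, which was not tested. The labels give both the same donor and record no sex, so spread between replicates cannot be read as spread between animals. There is no second condition, so the members are described beside all coding genes and beside each other, with no test.

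KLF proteins bind CACCC and GC-rich elements through zinc fingers at their C-terminal end, and the family holds both activators and repressors. KLF1 is the erythroid activator that the fetal liver needs to make red blood cells with adult beta-globin. KLF3 recruits the CtBP corepressor and binds many of the same elements as KLF1, and its gene is a known target of KLF1. The fetal liver is the main site of red cell production at this stage and also holds hepatoblasts, macrophages and endothelial cells. In such bulk tissue a smaller share of cells with open DNA and less open DNA per cell cannot be told apart.

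A peak value is the number in the signal column that the authors gave each peak, and its normalization is not stated. Every value was a whole multiple of 0.0127 in replicate 1 and of 0.00604 in replicate 2, so the count behind it could be recovered. Its 95% Poisson interval covers counting error only. The median peak rested on 69 counts in replicate 1 and 126 in replicate 2. Overlapping peaks of the 2 replicates were joined into regions, and 45831 of 99252 regions had a peak in each replicate and are called shared. A region within 1 kb of any transcript start of a coding gene is a promoter region and any other is distal. Values in replicate 2 were a median 0.878 times those in replicate 1 over all shared regions. Of the marker genes of the cell types that the tissue could hold, 9 of 10 erythroid genes had a shared promoter region, against 3 of 10 for hepatoblasts, 1 of 5 for macrophages, 1 of 5 for endothelial cells and 2 of 5 for megakaryocytes, and 3 of 5 neural genes had one too. Alas2, the erythroid heme synthesis gene, was the erythroid marker without one. Over all coding genes 58.4% had a shared promoter region.

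All 9 members had a shared promoter region, as did 58.4% of all coding genes. The highest values stood at Klf10, Klf13 and Klf6, and the lowest at Klf2 and Klf4, so neither Klf1 nor Klf3 led the family at its promoter. Klf10, a gene induced early by TGF-beta, had 18.7 in replicate 1 and 13.1 in replicate 2, above 96.8% and 94.8% of the promoters with a shared region. Klf13, a widely expressed member with a role in lymphocytes, had 18.3 and 11.3. Klf6, a broadly expressed member, had 13.8 and 9.44. Klf3 followed with 10.6 and 7.42, above 68.5% of promoters in replicate 2. Klf5, best known from epithelia, had 6.19 and 5.35. Over all such promoters the medians were 5.95 in replicate 1 and 5.04 in replicate 2, just under the Klf5 values. Klf9, a gene induced by glucocorticoids, had 4.82 and 3.50. Klf1 had 5.29 and 2.76, above only 45.7% and 30.6% of promoters. Klf2, an endothelial and lymphocyte regulator, had 2.92 and 2.70, and Klf4, an epithelial and stem cell regulator, had 1.59 and 1.73.

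**Figure D1:**
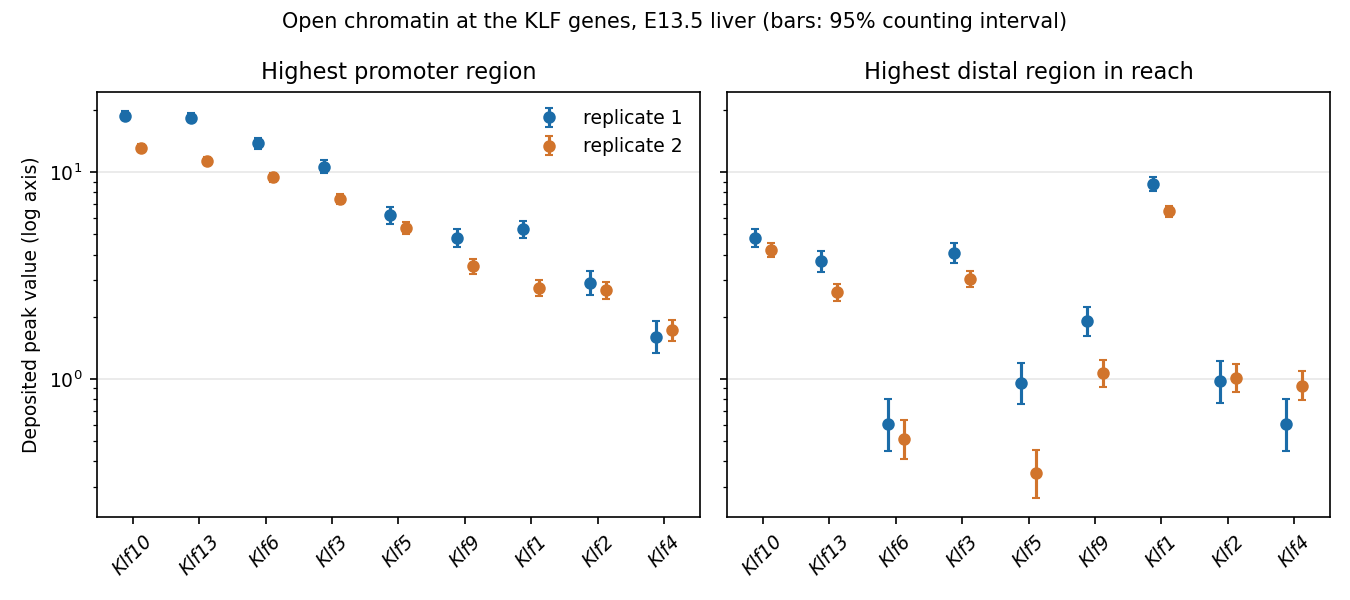
Deposited peak value (log axis) of the highest shared promoter region (left) and of the highest distal shared region in reach (right) of each gene, ordered by the mean promoter value. Points are the 2 replicates and bars the 95% Poisson interval of the recovered count; Klf1 stands seventh of 9 on the left, with 5.29 and 2.76, and highest on the right, with 8.78 and 6.47.

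The order of the promoters was nearly the same in both libraries (Spearman's rho 0.983 across the 9 genes, as a description), with Klf1 and Klf9 trading places. Klf10, with a mean of 15.9 ± 3.96 (SD, n = 2), Klf13, with 14.8 ± 4.94, and Klf6, with 11.6 ± 3.06, overlapped in the range of their replicates, and Klf6 overlapped with Klf3, at 9.02 ± 2.26. Klf5, at 5.77 ± 0.591, lay below both values of Klf3 and above both values of every member that follows. Klf1, at 4.03 ± 1.79, had replicates that spanned those of Klf9, at 4.16 ± 0.934, and overlapped those of Klf2, at 2.81 ± 0.159. Klf4, at 1.66 ± 0.0930, lay below the others in both replicates.

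Klf1 lies at chr8:84901928-84905291 on the plus strand of mm10 and has 1 annotated start and 3 exons. Its strongest region was inside the gene, not at the start. The region at chr8:84903081-84903320, centred 1273 bp past the start, lies wholly in coding sequence of the second exon. It reached 8.78 (8.14 to 9.46) in replicate 1 and 6.47 (6.09 to 6.87) in replicate 2, higher than 98.9% of the 25847 distal shared regions by the geometric mean of the replicates. The promoter region with the highest value lay 687 bp upstream of the start, at chr8:84901041-84901440, with 5.29 (4.80 to 5.82) and 2.76 (2.51 to 3.02). The region across the start itself, chr8:84901821-84902140, had 4.04 (3.61 to 4.51) and 2.75. The exonic region was thus 1.66 times the upstream region in replicate 1 and 2.35 times in replicate 2, with intervals that do not overlap in either library.

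An internal region above the promoter was seen for 1 of the 6 members that had both kinds of region, Klf1. Over all genes, 666 of 4795 with a shared promoter region and a distal shared region in the gene body, or 13.9%, had the internal one higher in both replicates. At Klf3 the internal region had 0.384 and 0.411 times the promoter value, at Klf4 0.373 and 0.531, at Klf9 0.394 and 0.305, at Klf13 0.203 and 0.232 and at Klf10 0.0710 and 0.0998. The exonic region of Klf1 is 1153 bp or more from the start, so a wider promoter window of 2.5 kb counts it as a promoter region.

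The 3 shared regions nearest to Klf1 all matched a loose paired pattern: CTG, then 7 to 9 bases, then GATA. It was searched on both strands in the central 200 bp. The pattern stands for an element that TAL1 and GATA1, partners of KLF1 in erythroid cells, are known to bind together. The GATA letters lie in TGATAA in the upstream and start matches and in GGATAC in the exonic match, on the strand of the match. The exonic match thus differs from the others at the bases on both sides of GATA. The pattern does not set these bases, and whether GATA1 can bind the exonic form was not tested. The regions are shown here with the match, called the element below, in capitals. Reference bases are those of GRCm38.p6, read 5′ to 3′ on the plus strand and without the 5′ UTR.
Klf1 upstream, chr8:84901091-84901390: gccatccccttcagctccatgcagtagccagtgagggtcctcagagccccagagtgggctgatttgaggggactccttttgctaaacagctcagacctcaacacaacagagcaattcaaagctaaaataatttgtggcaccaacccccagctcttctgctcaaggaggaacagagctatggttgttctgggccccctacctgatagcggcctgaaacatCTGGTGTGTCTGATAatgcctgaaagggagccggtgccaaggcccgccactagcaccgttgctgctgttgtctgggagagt
Klf1 start, chr8:84901821-84901927: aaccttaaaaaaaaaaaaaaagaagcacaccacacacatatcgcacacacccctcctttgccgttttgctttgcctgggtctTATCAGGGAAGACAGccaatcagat
Klf1 second exon, chr8:84903081-84903320: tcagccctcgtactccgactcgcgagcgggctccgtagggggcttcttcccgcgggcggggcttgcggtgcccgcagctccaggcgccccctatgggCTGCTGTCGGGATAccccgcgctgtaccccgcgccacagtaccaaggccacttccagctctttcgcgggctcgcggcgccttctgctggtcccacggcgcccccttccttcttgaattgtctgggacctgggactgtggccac
Counting each printed sequence from 1, the element spans bases 98 to 111 of the exonic sequence and lies inside the span of a footprint of both replicates at bases 76 to 121. A footprint is a short stretch, inside open DNA, that was cut less than its surroundings, and a footprint of both is the joined span of overlapping footprints of the 2 replicates. Replicate 2 had 1 footprint over that whole span, and replicate 1 had footprints at bases 77 to 103 and 105 to 121, which leave out base 104 of the element. The footprints of the exonic region at bases 26 to 43 and at bases 155 to 180 and 186 to 209 were also found in both. In the upstream sequence the element spans bases 220 to 234. Replicate 1 had footprints there at bases 213 to 224 and 228 to 234, and replicate 2 had none over it, its nearest lying at bases 201 to 207 and 254 to 264. In the start sequence the element is on the minus strand at bases 83 to 97, and no footprint of either replicate touched the printed bases.

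The element was in 3 of 3 shared regions nearest to Klf1, the exonic one in its GGATAC form. It was in 0 of 12 nearest to Klf3 and in 2 of 29 nearest to the other 7 members. Among all shared regions 7.96% held it, 3.86% of promoter regions and 11.1% of distal regions. The search found letters only, and matches to so short a pattern are a description and not a measured binding site. Of the 17 motifs searched, this pattern was the only one in all 3 regions of Klf1.

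Other stretches near Klf1 were weaker or uneven. A region of the first intron and second exon border, chr8:84902416-84902760, was a peak of replicate 1 alone, with 1.09. Replicate 2 listed a false discovery rate (FDR) as low as 2.12e-07 there, against 0.00135 in replicate 1. The upstream region had a lower replicate ratio than most, 0.594 times the median ratio of all shared regions, with 10.3% of regions lower still. At the exonic region that relative ratio was 0.839.

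Klf1 sits among close neighbours, with 6 other coding genes starting in its reach, against a median of 2 over all genes. Of the 24 regions in its reach only 5 were nearer to its start than to a start of another coding gene, and of its 14 shared regions only 3. The other 11 shared regions belonged by nearest start to Dnase2a (3), Syce2 (2), Rtbdn (2), Mast1 (2), Farsa (1) and Gcdh (1). Dnase2a, which encodes the DNase that macrophages use to digest expelled erythroid nuclei, had the highest of these, 14.2 and 8.57. The second distal shared region in reach of Klf1, chr8:84944561-84944740, was nearest to Rtbdn, with 3.16 and 2.52.

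**Figure D2:**
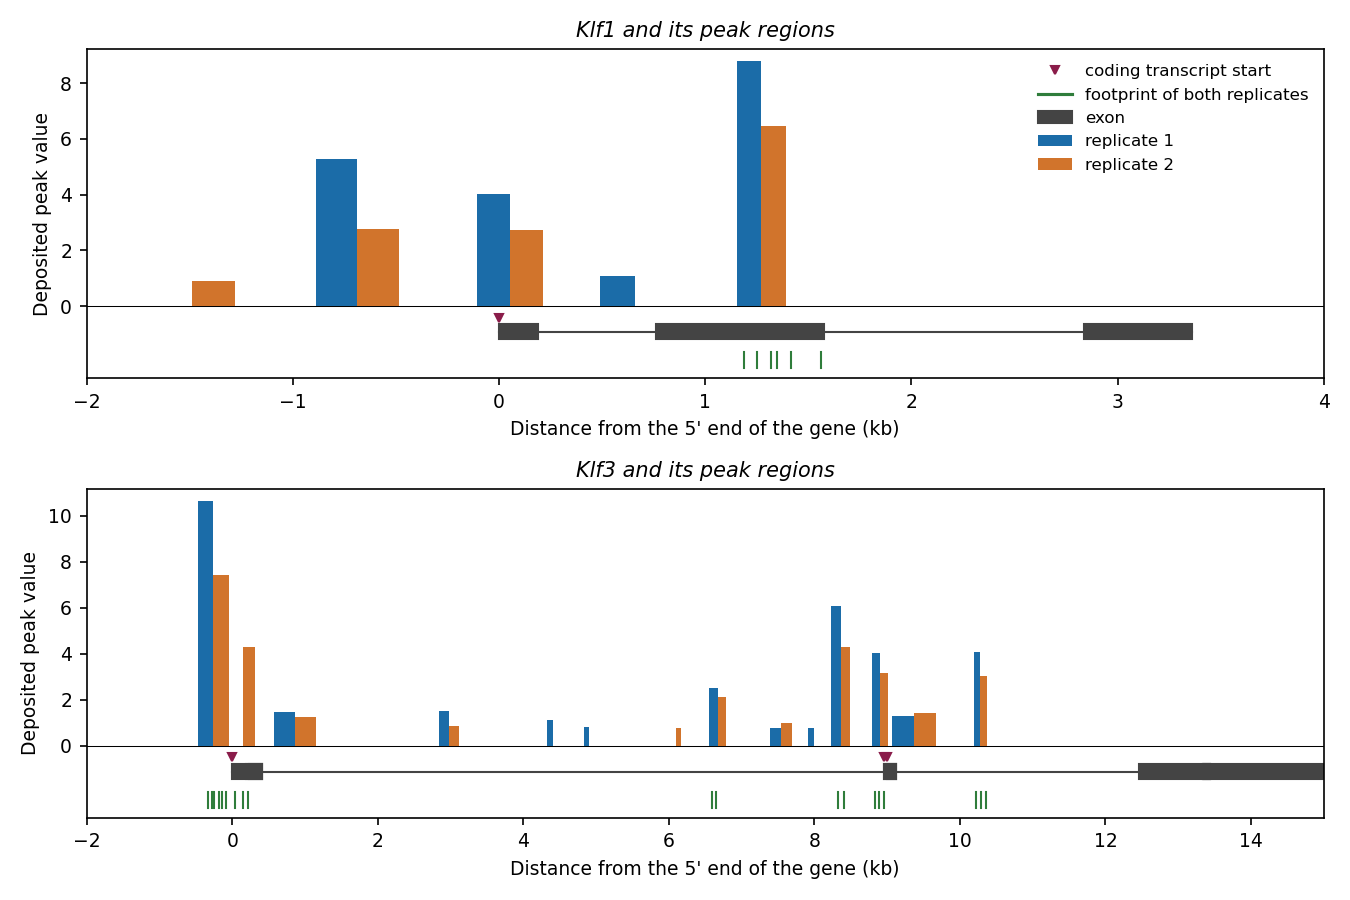
Peak regions along Klf1 (top) and the first part of Klf3 (bottom) by distance from the 5′ end of the gene (kb), with the deposited peak value as bar height; the left part of each region shows replicate 1 and the right part replicate 2, and a missing bar means no peak in that list. Exons of any transcript, coding transcript starts and footprints of both replicates are drawn below the axis. Promoter regions were called from all transcript starts of coding genes, not only the coding ones drawn. The tallest pair at Klf1, 8.78 and 6.47, stands over the second exon.

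Klf3 lies at chr5:64803388-64832901 on the plus strand and has 9 annotated starts. It had more regions nearest to its own starts than any other member. All 20 regions in its reach were nearest to Klf3, and 12 were shared, 5 promoter and 7 distal. All regions in reach were likewise nearest to the member at Klf4, Klf5, Klf6, Klf9 and Klf10. At these genes, as at Klf3, no other coding gene started in reach. Klf3 had the most starts of the members, ahead of Klf10 and Klf13 with 4 each, and the widest reach, 123 kb. The part of these in its count of regions was not tested. At least 1 distal shared region was in reach of every member and of 72.1% of all coding genes. The count of 7 at Klf3 was reached or passed by 7.29% of coding genes. The other 7 members had 1 to 4, with a median of 2, equal to the median over all genes. Klf1 had 2. Per 100 kb of reach Klf3 had 5.67, ahead of Klf2 with 4, Klf10 with 3.93, Klf13 with 3.51 and Klf1 with 2, and the median over all genes was 1.21. Klf3 also exceeded the median of the other 7 members under each alternative that was run, although it fell to 4 with the shorter peak list, a 20 kb reach or a 2.5 kb promoter window. Its lead over Klf1 did not hold at a reach of 100 kb, where Klf1 had 10 and Klf3 9.

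The strongest region of Klf3 ended just upstream of its first start, at chr5:64802921-64803340, with 10.6 (9.91 to 11.4) and 7.42 (7.02 to 7.85) and 6 footprints of both replicates. The next stretch, chr5:64803361-64803700 over the first exon, was a peak of replicate 2 alone, with 4.32. Replicate 1 nevertheless had an FDR of 1.87e-36 and 7 footprints there, and 3 footprints were common to both. Of all 25253 regions of replicate 2 alone, 2.00% had an FDR under 1e-06 in replicate 1. Both libraries thus listed bases of this stretch under the FDR limit, although only 1 listed a peak.

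A second set of regions lay around an internal start of Klf3, about 9 kb into the gene (offset 8951 bp). The region centred 588 bp upstream of it, chr5:64811621-64811880, had 6.09 (5.56 to 6.66) and 4.29 (3.98 to 4.62). The region centred 48 bp upstream of it, chr5:64812181-64812400, had 4.04 (3.61 to 4.51) and 3.14 (2.88 to 3.43). They held 2 and 3 footprints of both replicates. The highest distal region, in the intron at chr5:64813581-64813760, had 4.08 (3.64 to 4.55) and 3.05 (2.79 to 3.33) with 3 such footprints, above 93.1% of distal shared regions. A further intronic region, chr5:64809941-64810180, had 2.52 and 2.14 with 2 footprints, and the third by rank, chr5:64864721-64865020, lay past the gene's 3′ end with 2.73 and 1.48. It belongs to a group of 3 distal shared regions 34 to 40 kb from the nearest Klf3 start (offsets 34224, 38062 and 40022 bp). The other 4 lay in introns.

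The letters CCNCNCCC, a form of the CACCC and GC-rich elements that KLF and SP proteins bind, were in 10 of 12 shared regions nearest to Klf3, in 5 of 5 promoter and 5 of 7 distal regions. They were in 14 of 29 regions of the other 7 members, in 1 of 3 of Klf1, and in 56.0% of all promoter and 28.9% of all distal shared regions. Around footprints of both replicates in such regions, in 40 bp windows, they were in 6 of 23 at Klf1 and Klf3 together. At the other 7 members they were in 18 of 47, and in 20.7% of all footprints of both. On the opposite strand they read GGGNGNGG and overlap the GC box, GGGCGG, where both occur. The 4 regions of Klf3 in its first 10 kb or just before it that had a footprint of both over part of such a match are printed for this, with matches in capitals, on the plus strand.
Klf3 first start, chr5:64803040-64803339: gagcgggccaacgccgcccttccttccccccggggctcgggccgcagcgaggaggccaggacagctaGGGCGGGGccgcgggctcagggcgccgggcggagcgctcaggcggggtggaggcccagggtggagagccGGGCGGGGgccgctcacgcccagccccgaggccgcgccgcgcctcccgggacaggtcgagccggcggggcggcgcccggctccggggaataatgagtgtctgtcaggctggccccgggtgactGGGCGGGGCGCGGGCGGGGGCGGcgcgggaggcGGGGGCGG
Klf3 intron, chr5:64809941-64810180: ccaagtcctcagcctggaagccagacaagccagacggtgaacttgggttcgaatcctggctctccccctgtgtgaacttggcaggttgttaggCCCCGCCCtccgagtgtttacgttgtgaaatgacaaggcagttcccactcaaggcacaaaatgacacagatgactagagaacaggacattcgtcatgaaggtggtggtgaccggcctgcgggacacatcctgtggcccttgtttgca
Klf3 upstream of the internal start, chr5:64811621-64811880: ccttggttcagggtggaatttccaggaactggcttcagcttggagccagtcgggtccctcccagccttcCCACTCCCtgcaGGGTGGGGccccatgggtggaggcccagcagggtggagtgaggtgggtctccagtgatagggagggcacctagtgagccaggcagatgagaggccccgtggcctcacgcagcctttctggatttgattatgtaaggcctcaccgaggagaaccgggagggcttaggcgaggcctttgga
Klf3 internal start, chr5:64812181-64812338: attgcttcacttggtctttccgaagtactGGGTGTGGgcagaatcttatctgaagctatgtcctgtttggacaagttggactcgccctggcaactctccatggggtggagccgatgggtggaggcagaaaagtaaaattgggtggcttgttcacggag
In the first-start sequence replicate 1 had a footprint at bases 65 to 79 over the match at bases 68 to 75, and replicate 2 had one at bases 69 to 81 over all but its first base. A run of 4 overlapping matches from base 260 to base 282 was covered in different parts, at bases 247 to 261 and 274 to 285 in replicate 1 and at bases 260 to 276 in replicate 2. The match at bases 137 to 144 lay in a footprint of replicate 1 alone (136 to 147). In the intronic sequence the match at bases 94 to 101 lay in a footprint of each replicate (89 to 109 and 89 to 110). Upstream of the internal start, the match at bases 82 to 89 lay in a footprint of replicate 1 (79 to 97), that of replicate 2 (89 to 98) touched only its last base, and the match at bases 70 to 77 lay in none. At the internal start the footprint of both at bases 33 to 42 covered part of the match at bases 30 to 37. The AGATAA element of GATA factors was in 1 of 5 promoter and 1 of 7 distal regions of Klf3. It was in 0 of 3 of Klf1, where the looser paired pattern had matched. Other motifs also stood above their share of all distal shared regions in the 7 of Klf3. TGTTTNC of FOXA factors was in 4, beside 14.8%, TGTGGT of RUNX factors in 3, beside 17.2%, and CCGGAAG of ETS factors in 2, beside 2.21%. Among those below it, the E-box, CAGNTG, was in 1, beside 49.7%, and the CTCF core, CCANNAGNG, in 2, beside 32.7%.

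Klf10 and Klf13 came next to Klf3 in shared regions nearest to their own starts, with 8 each. Klf10 had 12 regions, 8 shared, 4 of them distal. Its start region chr15:38300661-38300940 was followed by a second promoter region at chr15:38300961-38301200, with 10.3 and 9.39. Its highest distal region, chr15:38301781-38302020, lay 1195 bp upstream of the start with 4.80 (4.33 to 5.31) and 4.22 (3.91 to 4.54), above 95.9% of distal shared regions. The next lay 3′ of the gene at chr15:38283961-38284160, with 2.91 and 2.58, and the third in its coding sequence at chr15:38297361-38297560, with 1.33 and 1.31. Klf13 had its strongest region at chr7:63938921-63939320 just upstream of the start, with 8 footprints of both replicates, the most of any region nearest to a member. It had 4 distal shared regions. The highest was in its own intron at chr7:63896921-63897200, with 3.71 and 2.63, but nearer to a start of E030018B13Rik. The others ran upstream, at chr7:63956241-63956660 with 2.97 and 1.36, at chr7:63941641-63941860 with 2.25 and 1.41, and at chr7:63974221-63974440 with 1.96 and 1.28.

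Klf6, Klf5, Klf9, Klf2 and Klf4 had their highest region at the start, and their distal shared regions were at or below 1.90. Klf6 had its strongest region at chr13:5861181-5861480, and its 1 distal shared region, chr13:5845214-5845400, had 0.608 and 0.513. Klf5 had chr14:99298441-99298700 at the start with 4 footprints of both. Its 1 distal region, chr14:99263981-99264193, had 0.962 (0.758 to 1.20) and 0.350 (0.266 to 0.453), and this replicate ratio, relative to the median, was 0.414, with 2.51% of shared regions lower. Klf9 had chr19:23140681-23141280 at the start and 1 intronic distal region, chr19:23152321-23152680, with 1.90 and 1.07. Klf2 had chr8:72318801-72319140 across its start. Each of its 4 distal shared regions was nearer to another gene, and the highest by the geometric mean of the replicates, chr8:72365901-72366100 in an intron of Eps15l1, had 0.975 and 1.01. The next were chr8:72272478-72272660 with 1.16 and 0.833 and chr8:72295759-72295960 with 0.785 and 0.543. Klf4 had chr4:55532441-55532680 at the start and 2 weak distal regions, chr4:55514787-55515200 with 0.608 and 0.930 and chr4:55530201-55530600, in its coding sequence, with 0.595 and 0.918.

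**Figure D3:**
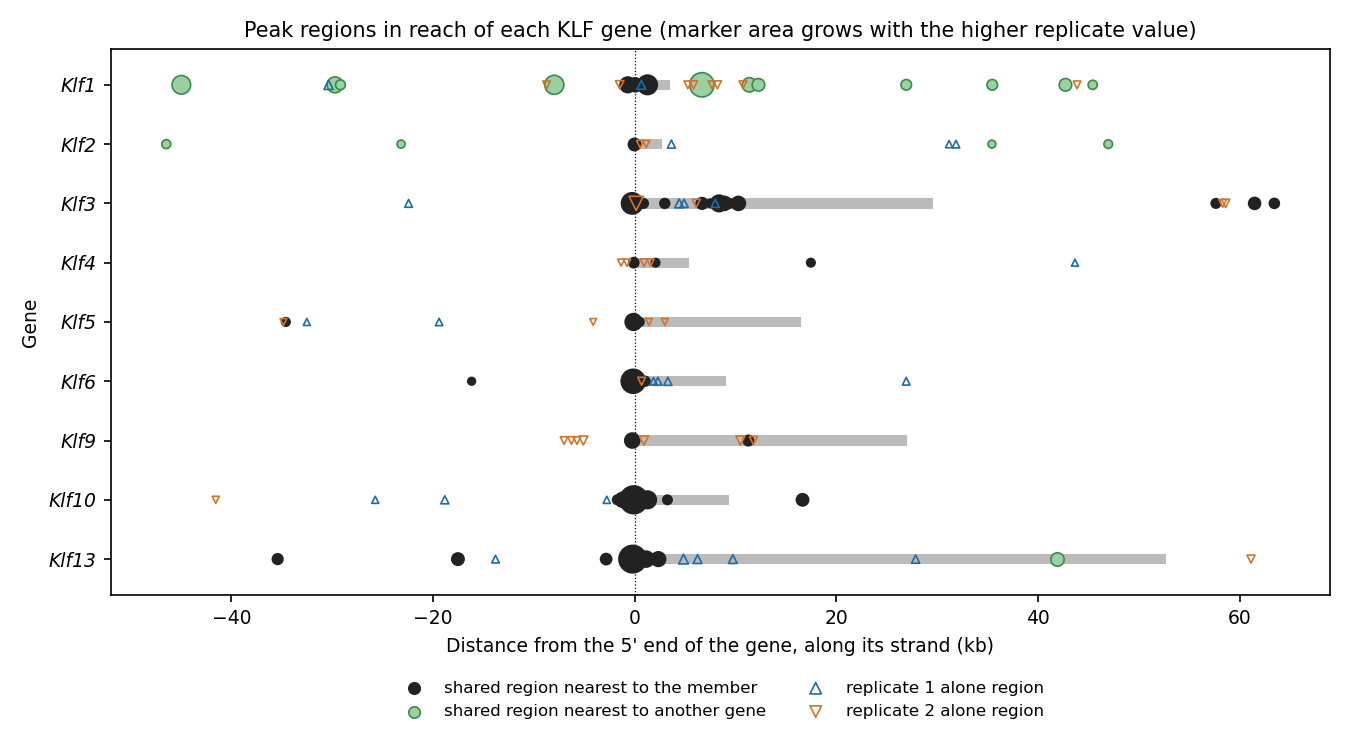
Peak regions in reach of each gene by distance from its 5′ end along its strand (kb); grey bars are gene bodies, filled circles are shared regions, open triangles are regions of 1 replicate, and marker area grows with the higher of the replicate values. Green circles are nearest to another gene and mark 11 of the 14 shared regions around Klf1, while all 12 around Klf3 are its own. All those around Klf4, Klf5, Klf6, Klf9 and Klf10 are also their own.

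The start regions of Klf10 and Klf6, among the 3 highest promoters, are printed beside those of Klf1. Klf13, the other of these, is not printed. The sequences lie upstream of each start, on the strand of the gene. CCNCNCCC matches of Klf10 and CCAAT matches of Klf6, the element of NF-Y, are in capitals.
Klf10 start, chr15:38300707-38300940, minus strand: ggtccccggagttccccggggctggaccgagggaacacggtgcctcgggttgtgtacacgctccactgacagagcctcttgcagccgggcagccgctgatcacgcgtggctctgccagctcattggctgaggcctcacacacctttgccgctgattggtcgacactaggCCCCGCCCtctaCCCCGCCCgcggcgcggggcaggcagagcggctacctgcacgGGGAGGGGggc
Klf6 start, chr13:5861181-5861480, plus strand: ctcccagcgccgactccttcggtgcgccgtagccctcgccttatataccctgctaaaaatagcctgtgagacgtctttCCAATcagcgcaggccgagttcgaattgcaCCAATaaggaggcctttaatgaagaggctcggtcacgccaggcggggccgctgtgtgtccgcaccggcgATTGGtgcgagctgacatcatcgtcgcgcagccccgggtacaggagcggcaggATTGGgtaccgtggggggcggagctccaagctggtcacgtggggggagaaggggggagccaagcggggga
The Klf10 matches at bases 170 to 177 and 182 to 189 lay together in a footprint of each replicate (161 to 196 and 163 to 196). Of the 4 CCAAT matches of Klf6, the one at bases 178 to 182 lay in a footprint of each replicate (162 to 182 and 172 to 184). The one at bases 109 to 113 lay in a footprint of replicate 2 (106 to 119), while that of replicate 1 (112 to 119) covered only its end. Those at bases 79 to 83 and 231 to 235 lay in none. Over the members, CCAAT was in 4 of 15 shared regions of Klf1 and Klf3 and 6 of 29 of the others, beside 23.3% of all shared regions, which is close to either.

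In RefSeq's promoter table for GRCm38.p6, which spans 250 bases before to 50 after a gene's start, 7 of the 9 members had an entry, with Klf5 and Klf10 not listed. The Klf1 promoter was 51.3% G or C with 3 CpG, where the medians over 32851 promoters were 52.7% and 7. The other 6 were 63.0% to 76.7% G or C with 23 to 40 CpG, with Klf3 highest in G or C and Klf4 in CpG. CCNCNCCC was in 5 of the 7, all but Klf1 and Klf9, and in 49.5% of all promoters. The paired CTG and GATA element was in Klf1 alone of the 7, and in 7.18% of all promoters. The RefSeq promoter of Klf1 covers the start match described above, so this is not a separate observation.

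Every member had at least 1 footprint of both replicates in reach, as did 77.8% of all coding genes. Klf1 had 36, Klf3 22, Klf13 20 and Klf10 18, while Klf6 had 6, Klf2 4, Klf5 4, Klf4 2 and Klf9 1, beside a median of 8 over all genes. Most of those of Klf1 lay at its neighbours: 4 of its 36, or 11.1%, lay in shared regions nearest to Klf1, all in the exonic region, and 6 lay anywhere in the gene. At Klf3 19 of 22, or 86.4%, lay in its own shared regions, at Klf10 17 of 18 and at Klf13 17 of 20. By own regions the order was thus Klf3, then Klf10 and Klf13, then Klf6 with 5, and Klf1 and Klf5 with 4 each.

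**Figure D4:**
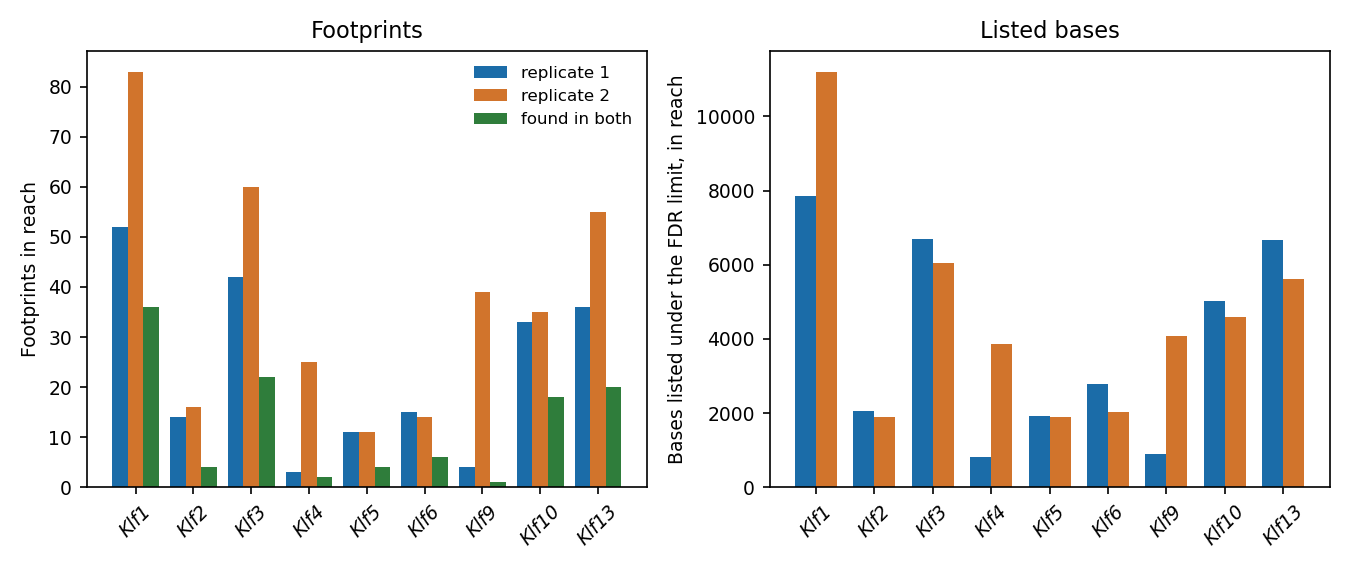
Footprints in reach of each gene in replicate 1, in replicate 2 and in both (left), and bases in reach listed with an FDR under 0.05 in each replicate (right). Klf4 and Klf9 stand out by their replicates, with 3 and 25 and 4 and 39 footprints.

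Klf4 and Klf9 differed most between the libraries in footprints and listed bases. Klf9 had 4 footprints in replicate 1 and 39 in replicate 2, and 7 of its 9 regions were peaks of replicate 2 alone. Klf4 had 3 and 25 footprints, and 4 of its 8 regions were of replicate 2 alone, all within 2 kb of its 5′ end. Over the series 25253 of 99252 regions were of replicate 2 alone. Bases listed with an FDR under 0.05 numbered 902 and 4083 in reach of Klf9 and 813 and 3873 in reach of Klf4, ratios of 4.53 and 4.76. Over 19764 coding genes the median ratio was 0.965 with quartiles of 0.782 and 1.23, and only 2.62% and 2.49% of genes had a higher ratio than Klf9 and Klf4. Their highest promoter regions differed less, with replicate ratios of 0.827 and 1.23 relative to the median. The other 7 members had listed-base ratios from 0.724 at Klf6 to 1.43 at Klf1. Replicate 2 had more footprints and a smaller step in all its peaks, and the part of these in the difference was not tested.

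Across the members 60 of 116 regions were shared, 24 were of replicate 1 alone and 32 of replicate 2 alone. Over the series 45831 of 99252 regions were shared, 28168 were of replicate 1 alone and 25253 of replicate 2 alone. The unshared regions of the members were weak, with median values of 0.747 and 0.625. In 2 of the 24 and 3 of the 32 the other library listed any base with an FDR under 0.05, beside 13.3% and 9.84% over all such regions of the series.

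Related genes were described from lists by count. Of the 8 other KLF genes, 6 had a shared promoter region, led by Klf16 with 21.4 and 16.0 and Klf11 with 19.2 and 14.8, and Klf14 and Klf17 had none. Klf16 had 12 distal shared regions, more than any of the 9 members, and the median of the list was 4. Of the 9 SP genes, which bind the same GC-rich elements, 6 had a shared promoter region, with a median of 4 distal shared regions. All 10 listed cofactors of KLF proteins, among them Ctbp1 and Ctbp2 that encode partners of KLF3, had one, with a median of 4. All 14 listed genes known to depend on KLF1, Klf3 and Klf8 included, had one, with a median of 3.5. That of Klf8 had only 0.823 and 0.543, below the median peak values of 0.873 and 0.761. The background for the lists is 58.4% of genes with a shared promoter region and a median of 2 distal shared regions. The lists were chosen with earlier results of these data known.

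By likeness of the promoter values in both replicates and the distal count, measured as a distance on the log2 scale over 12774 genes, the genes nearest to Klf1 were Atp5l, Gstm4 and Tubb1, at distances of 0.130, 0.134 and 0.157. Those nearest to Klf3 were St3gal5, Wdr7 and Xrra1, at 0.0503, 0.0782 and 0.0835.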

How the data were processed

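DNase-seq libraries of 2 biological replicates in 1 group were used as deposited. The authors derived the peaks, the false discovery rates (FDR) and the footprints of each library from its own filtered mm10 alignment, per the README notes deposited beside them. Names and versions of the aligner and callers were not given in the sources read, and neither was the handling of multi-mapping reads. Each deposited peak carries a signal value with no stated normalization, and whether it is a height or a total is not stated either. Across peaks its Spearman correlation with width was 0.532 in replicate 1 and 0.441 in replicate 2. The deposited FDR lists give a p-value-like FDR per stretch, only where it is under 0.05, and the footprint lists carry 0.01 in every line, read as their threshold. Library totals were not used here.

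The longer of the 2 peak lists of each library was used. Peaks, and likewise footprints, were joined between replicates where they shared 1 bp or more, and the value of a region in a replicate is that of its highest peak. Genes and starts came from GENCODE M21 on GRCm38.p6, the build of the files, with 0 lines past a chromosome end. Counts were recovered from the step of the values with a tolerance of 0.05 of a step, and 100% of values came out whole in both libraries. The 17 motifs were searched as letters on both strands, in the central 200 bp of a region or 40 bp around the middle of a footprint. For each member the highest shared promoter region and up to 3 highest distal shared regions by geometric mean were named, with the 3 genes most alike to Klf1 and Klf3. The members and lists were chosen with earlier results of these data known. The merging, footprint and motif code was tested on simulated data. Python 3.11.15, numpy 2.4.6, pandas 2.3.3, scipy 1.17.1 and matplotlib 3.10.9 were used. Other lists, overlaps, windows, reaches and single replicates were run as alternatives.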

Additional observations from a re-analysis of the deposited data

How the results depend on the processing

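The count of 9 members with a shared promoter region held under all alternatives that were run for it. The wider promoter window could not lower it by construction. Single replicates could hardly lower it, because a shared region already has a peak in each. The shorter list, the 50% overlap and the peaks at or above the median value could have lowered it. Of 51 counts and medians under an alternative, 24 moved by over 1.5 times, and the cause was not tested beyond what each setting changes by construction. For distal shared regions, with main values of 2 at Klf1, 7 at Klf3 and a median of 2 at the other 7 members, the shorter list gave 4 at Klf3 and a median of 0. Overlap of at least 50% of both peaks gave a median of 1, and so did peaks at or above the library's median value. A promoter window of 2.5 kb gave 0 at Klf1, 4 at Klf3 and a median of 1. A reach of 20 kb gave 1, 4 and 1, and the nearest start alone gave 1 at Klf1 and a median of 1. A reach of 100 kb gave 10 at Klf1, 9 at Klf3 and a median of 3, so Klf1 passed Klf3 there. With peaks of 1 replicate alone the values ran from 2 to 5 at Klf1, from 10 to 10 at Klf3 and from 3 to 5 for the median. For footprints of both replicates, with main values of 36, 22 and a median of 4, an overlap of at least 50% gave 14 at Klf3 and a median of 2. At Klf1 a reach of 20 kb gave 22 and a reach of 100 kb gave 109. With 1 replicate alone the values ran from 52 to 83 at Klf1, from 42 to 60 at Klf3 and from 14 to 25 for the median. Of 36 promoter values under an alternative 2 moved by more than 1 SD, Klf1 to 7.63 with the 2.5 kb window and Klf9 to 6.04 when the peaks of a region were summed. Dividing values by the library's median changed 0 places in the order, but such scaling keeps the order within each library by construction. With the 2.5 kb window Klf1 passed Klf5, at 5.77, and Klf9, at 4.16. No paired analysis was possible because both libraries belong to 1 group and no test was run. The lowest peaks rested on 7 recovered counts in each library.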
